A study of Mus musculus with 2 samples.

Results

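The 10 genes described here encode the CREB family of transcription factors and their coactivators. They are Creb1, Crem, Atf1, Atf2 and Atf4 (transcription factors), Crtc1, Crtc2 and Crtc3 (CREB-regulated transcription coactivators) and Crebbp and Ep300 (the histone acetyltransferases CBP and p300). They were chosen by name, by a rule that uses no measured value, and are 10 of 21938 protein-coding genes annotated in GENCODE M21. DNase-seq, in which the enzyme DNase I cuts accessible chromatin and the cut ends are sequenced, was measured in the right cerebral cortex. The tissue came from adult female mice of the hybrid strain B6CASTF1/J (C57BL/6J crossed with CAST/EiJ), aged 18 to 20 months. There were 2 replicates in 1 group, with no treatment, no control and no introduced allele, so no comparison between groups and no test was made. The labels name a separate biosample for each replicate but the same donor identifier, so the spread between them may be technical.

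CREB-family proteins are bZIP factors that bind the cyclic AMP response element (CRE) as dimers. Protein kinase A and calcium-dependent kinases phosphorylate CREB at a conserved serine, which recruits CBP and p300, while CRTC proteins enter the nucleus after calcineurin removes phosphates that SIK kinases added. In cortical neurons this pathway is known for coupling synaptic activity to transcription, and a short repressor, ICER, is known to arise from an internal promoter of Crem that CREB itself activates.

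The main peak lists held 86601 peaks in replicate 1 and 88482 in replicate 2. Peak values are the deposited signal, with a normalization not given in the sources used here. All values were whole multiples of 1 step per library, and if 1 step is 1 read scaled to depth, the libraries held 201 and 112 Mreads (M, mega). Replicate 2 gave the higher promoter value for 93.5% of genes, by a median of 1.41-fold. For the labelled tissue, both replicates showed promoter peaks at 4 of 4 pan-neuronal genes and 4 of 6 excitatory neuron genes, against 0 of 3 hepatocyte and 0 of 3 striated muscle genes. The tissue is a mixture of cell types, and a low value from fewer cells with an open site cannot be told apart from lower accessibility in each cell.

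All 10 genes had a peak within 500 bp of an annotated start site in both replicates, against a background of 57.9% of protein-coding genes. Their values spanned nearly the whole range of open promoters, from Crtc3 at the 4.80th percentile of the 12692 genes open in each replicate to Atf2 at the 97.6th. The median over the 10 genes was 3.93, against 2.71 over those 12692 genes, and 8 of the 10 lay above the latter. By mean value the order was Atf2, Creb1, Atf4, Crtc2, Ep300, Crtc1, Crem, Crebbp, Atf1 and Crtc3. Neighbours in this order overlapped in the range of their replicates, except Crem with Crebbp and Atf1 with Crtc3. Atf2 ranked first and Crtc3 last in each replicate.

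**Figure D1:**
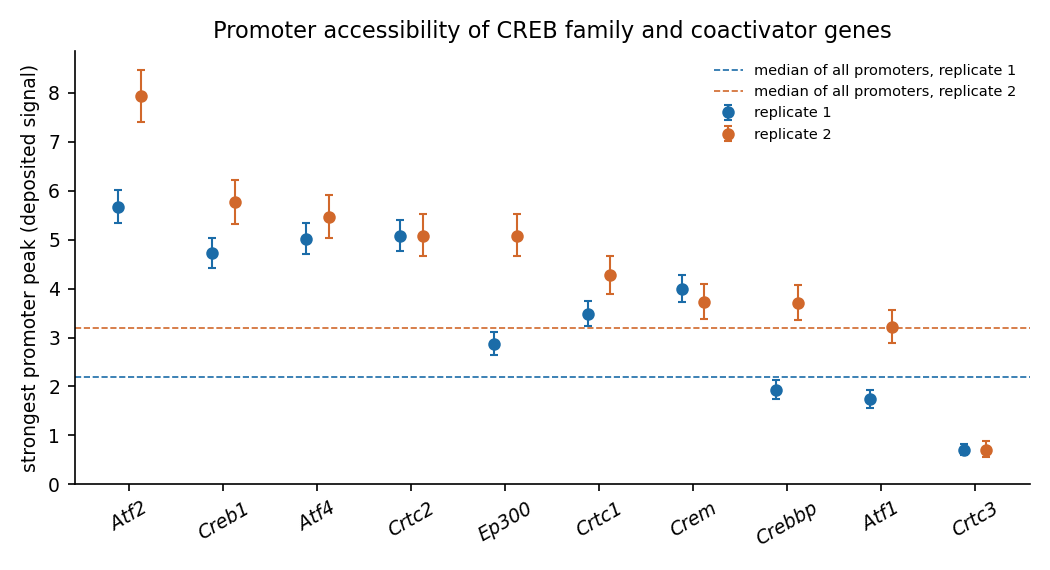
Deposited signal of the strongest promoter peak of each gene (vertical axis, from 0) in replicate 1 (blue) and replicate 2 (orange), with exact 95% Poisson intervals on the inferred reads, which cover counting error only. Dashed lines are the medians over the 12692 open genes, 2.19 in replicate 1 and 3.20 in replicate 2, and only Crtc3 lies far below both lines.

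Among the transcription factors, Creb1 encodes CREB, the founding member of the family. Its promoter peak (chr1:64532681-64533020, mm10, over first exons on the plus strand) had a value of 4.72 in replicate 1 and 5.76 in replicate 2, a mean of 5.24 ± 0.734 (SD, n = 2). Both values lay above the medians of their replicate. The region held 8 footprints in replicate 1 and 9 in replicate 2, and 7 of those in replicate 1 overlapped one of replicate 2. A footprint is a short stretch of fewer DNase I cuts inside an open region, listed by the authors with a threshold value of 0.01 whose kind the files do not state. The other 2 start-site groups of Creb1, 28280 bp and 43743 bp from its 5′ end, each carry 1 noncoding transcript. The first had no peak, and the second had a peak of 0.446 in replicate 2 alone.

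Atf1 encodes the closest relative of CREB and binds the same element. Its promoter value was 1.74 in replicate 1 (95% Poisson interval 1.57 to 1.94) and 3.21 in replicate 2 (2.89 to 3.56), a mean of 2.48 ± 1.04 (SD, n = 2). Replicate 1 lay below the median of all promoters in that library and replicate 2 lay at it. The difference of 1.84-fold was inside the central 95% of all genes once the median shift between replicates was removed, where Atf1 stood at -0.38 (log2 of replicate 1 over replicate 2) in a range of -0.73 to 0.64. Of 3 footprints in replicate 1, 2 overlapped one of replicate 2. The promoter is printed with the bases inside footprints of both replicates in capitals, because its single CRE core, the shorter motif TGACG, at position -50 from the start site, lay outside all footprints. Atf1 also had 1 distal region, in its own intron at chr15:100251347-100251760 (0.910 and 1.30), with 3 AP-1 motifs (TGANTCA). The last of them lay wholly inside a footprint of each replicate, and the stretch around it is printed for that reason. Both sequences are on the plus strand of GRCm38.p6 (mm10), chr15:100227621-100227818 and chr15:100251539-100251669.
Atf1 promoter: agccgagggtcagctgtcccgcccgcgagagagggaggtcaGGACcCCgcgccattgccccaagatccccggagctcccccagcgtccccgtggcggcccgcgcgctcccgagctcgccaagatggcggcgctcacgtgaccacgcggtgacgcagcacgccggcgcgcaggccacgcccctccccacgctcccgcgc
Atf1 intron: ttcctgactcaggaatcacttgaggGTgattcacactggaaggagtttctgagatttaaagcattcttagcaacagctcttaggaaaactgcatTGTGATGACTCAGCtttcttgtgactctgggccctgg

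Atf2 encodes a related factor that is phosphorylated by stress kinases and pairs with Jun. It had the most accessible promoter of the 10 genes, at 5.67 in replicate 1 and 7.93 in replicate 2, a mean of 6.80 ± 1.60 (SD, n = 2). Its 1.40-fold difference between replicates was close to the median shift of all genes. The peak region lay upstream of the start site, and a long noncoding RNA gene, Gm10822, starts within 500 bp of it. No CRE or CRE core was found in the region. All 3 of its GC boxes (GGGCGG on either strand) lay wholly inside footprints of both replicates. The sequence is printed to show them, as CCGCCC within runs of capitals near the 3′ end (GRCm38.p6, chr2:73892721-73893020, minus strand).
Atf2 promoter: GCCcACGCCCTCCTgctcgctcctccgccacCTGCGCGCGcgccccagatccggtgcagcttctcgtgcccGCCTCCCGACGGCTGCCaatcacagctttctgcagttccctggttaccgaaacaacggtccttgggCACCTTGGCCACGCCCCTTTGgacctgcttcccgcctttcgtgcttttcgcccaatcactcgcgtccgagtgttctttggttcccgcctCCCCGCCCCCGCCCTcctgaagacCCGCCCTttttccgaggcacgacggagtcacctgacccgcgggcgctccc

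Atf4 encodes the main factor of the integrated stress response, which is controlled largely by translation. Its promoter value was 5.01 in replicate 1 and 5.47 in replicate 2, a mean of 5.24 ± 0.319 (SD, n = 2), and thus equal to that of Creb1 within the spread. A second, weaker region over its exons (0.691 and 0.990) held no footprint in replicate 2. Atf4 has 1 start-site group and had no distal region of its own, although 8 distal regions lay within 100 kb of it and nearer to other genes. CRE cores stood in the promoter region, at positions -12, 40 and 87 from the 5′-most start site (negative upstream), and none was inside footprints of both replicates. The part upstream of the start site is printed, with the first of them as cgtca just after the last run of capitals (GRCm38.p6, chr15:80255001-80255183, plus strand).
Atf4 promoter: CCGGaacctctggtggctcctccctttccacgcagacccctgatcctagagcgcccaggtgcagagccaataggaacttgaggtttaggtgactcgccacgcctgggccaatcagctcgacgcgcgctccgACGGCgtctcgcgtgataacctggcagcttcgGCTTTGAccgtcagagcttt

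Crem encodes activators and repressors of CRE-driven transcription from several promoters and had the most start sites of the 10 genes. GENCODE M21 gives it 26 start sites of 39 transcripts, which fall into 7 groups when sites no more than 500 bp apart are joined. Of these groups 3 were open in both replicates, the 5′-most and the 2 that lie deepest inside the gene. The 5′-most promoter (chr18:3337321-3337820, minus strand) had 3.99 in replicate 1 and 3.73 in replicate 2, a mean of 3.86 ± 0.187 (SD, n = 2). Crem was 1 of 3 genes of the 10, with Crtc2 and Crtc3, that were not higher in replicate 2. Over all open genes, 93.5% were higher in replicate 2. A weaker neighbouring region (chr18:3336601-3337200, 0.611 and 1.20) held no footprint. This region and that of the 5′-most promoter both overlap an exon of Gm6225, a gene that starts within 500 bp of the weaker region.

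The 2 open internal groups lie 55979 bp and 56616 bp downstream of the 5′ end and carry 4 and 3 annotated coding transcripts. The region at the first of them (chr18:3281721-3281920) had a value of 0.447 in replicate 1 and 1.20 in replicate 2, a mean of 0.826 ± 0.535 (SD, n = 2). The region at the second (chr18:3280761-3281260) had 1.35 and 1.89, a mean of 1.62 ± 0.381 (SD, n = 2). Both internal regions were weaker than the 5′-most promoter in each replicate. The 4 groups between, at 10157, 12270, 27848 and 38189 bp, also carry coding transcripts but had no peak in the shorter or the longer list of either replicate.

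**Figure D2:**
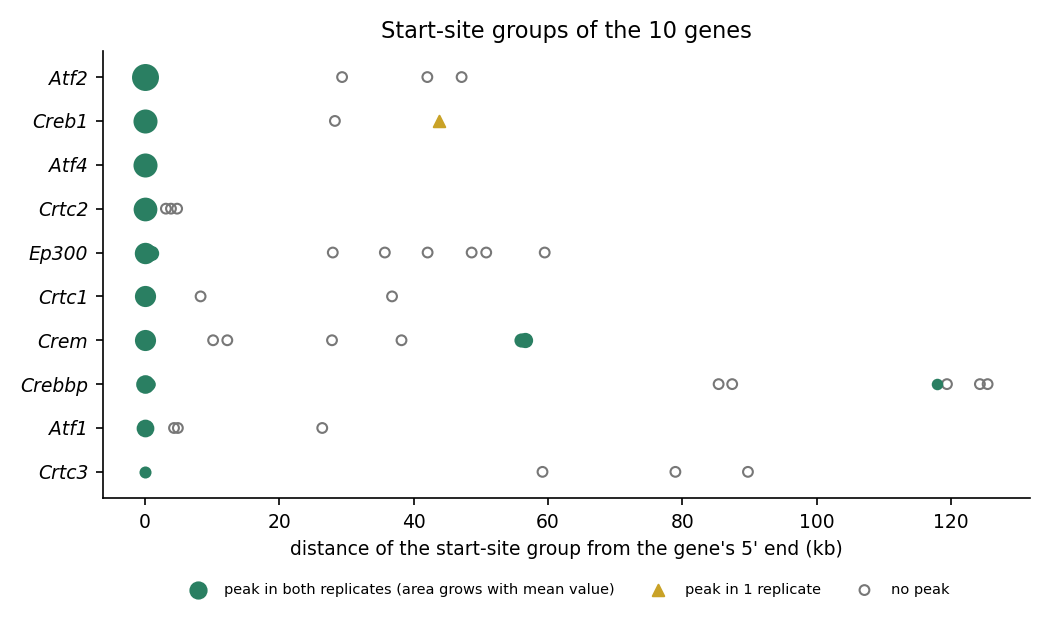
Start-site groups of the 10 genes by distance from the 5′ end of the gene (horizontal axis, kb). Filled circles are groups with a peak in both replicates, with an area that grows with the mean value, the triangle is a group with a peak in replicate 2 alone, and open circles are groups with no peak. All 10 groups at 0 kb are filled, and of 36 downstream groups the 5 filled ones belong to Crem, Crebbp and Ep300.

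These internal Crem regions were the only 2 of the 18 shared promoter regions of the 10 genes with a full CRE (TGACGTCA). Over all 18769 shared promoter regions the share was 3.20%, and 2.15% had a CRE wholly inside footprints of both replicates. Counted from the most downstream start site of Crem, the 3 CREs begin at positions -750, -97 and -30. The CRE at -750 lay wholly inside a footprint of 18 bp in replicate 1 and of 27 bp in replicate 2. The CRE at -97 lay wholly inside footprints of 12 and 16 bp. The CRE at -30, which ends at -23, was mostly covered in each replicate but lay wholly inside no footprint. In replicate 1 it fell across 2 footprints, at -36 to -28 and -26 to -15. In replicate 2 a footprint at -29 to -15 covered all but its first base. The annotation does not name ICER, so which of these start sites makes it cannot be read from it, and a motif match is no measurement of a bound factor. Of the 15 start-site windows of the 10 genes that were open in both replicates, 2 held a CRE, those of the internal Crem groups. Of the 31 other windows 0 held a CRE. Of all RefSeq promoter windows, a different set of windows, 1.79% held a CRE, so a count of 0 in 31 is uninformative.

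**Figure D3:**
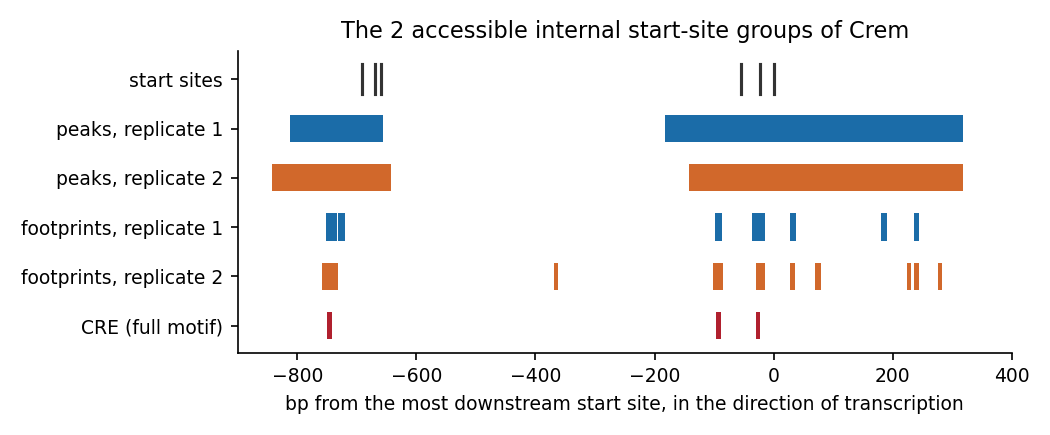
Start sites, peaks, footprints and full CRE motifs at the 2 open internal start-site groups of Crem, in bp from its most downstream start site in the direction of transcription (horizontal axis). Blue is replicate 1, orange is replicate 2, and red marks the 3 CREs, of which those at -750 and -97 lie inside a footprint of each replicate.

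The CRE core TGACG, which each full CRE holds 2 times when both strands are read, stood in 9 of the 18 promoter regions, against 31.7% of all shared promoter regions. The 18 regions had a median width of 300 bp against 260 bp for all. A core lay wholly inside footprints of both replicates in 3 regions, against 7.36% of all, and the 3 were at Crem: the 2 internal ones and the 5′-most promoter, at position -17. In the promoter windows of RefSeq (GRCm38.p6), which span a start site, 8 of the 10 genes were matched, without Crem and Crtc2. None of these 8 held a CRE, against 1.79% of 32851 windows.

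Among the coactivators that bind the CREB leucine zipper, Crtc1 is the member known best from neurons. Its promoter value was 3.48 in replicate 1 and 4.27 in replicate 2, a mean of 3.88 ± 0.556 (SD, n = 2). Crtc2, known best from hepatic gluconeogenesis, had 5.08 in both replicates (5.08 ± 0.00141, SD, n = 2) and no distal region. With the median shift of all genes removed, Crtc2 stood at 0.50 (log2 of replicate 1 over replicate 2). Crtc3 had the least accessible promoter, at 0.706 in replicate 1 (95% Poisson interval 0.594 to 0.832) and 0.704 in replicate 2 (0.558 to 0.878). Its range did not overlap that of any other member. Of its 2 footprints in replicate 1, 1 overlapped the footprint of replicate 2. None of the 3 genes had a CRE or CRE core in its promoter region.

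The distal regions of the 3 coactivator genes ran in another order. A distal region here is a region with a peak of each replicate, more than 500 bp from any start site, whose nearest protein-coding start site within 100 kb belongs to the gene. Crtc3 had 9, more than 97.1% of protein-coding genes, Crtc1 had 5 and Crtc2 had 0. Of the 9 at Crtc3, 7 lay in its own introns, and all had mean values from 0.625 to 1.27. With the stronger 50% of peaks in each replicate Crtc3 kept 2 and Crtc1 kept 5, and with start-site windows of 2000 bp Crtc3 had 5. Crtc3 spans 102251 bp, Crtc1 57225 bp and Crtc2 9963 bp, against a median of 17425 bp for protein-coding genes, and the part of gene length was not tested. The longest of the 10 genes, Crebbp at 132670 bp, had 2 distal regions, and the shortest, Atf4 at 2358 bp, had 0.

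Over all 10 genes there were 28 distal regions, and 8 genes had at least 1, against 52.7% of protein-coding genes. The median was 1.5 per gene against 1. Creb1 had 7, of which 6 lay outside the gene upstream. The strongest distal region lay in an intron of Crtc1 (chr8:70418041-70418300), with 3.33 in replicate 1 and 2.87 in replicate 2, a mean of 3.10 ± 0.328 (SD, n = 2). It held 6 footprints in replicate 2 and 0 in replicate 1, although replicate 1 gave the higher value. Weaker regions, also intronic in Crtc1, flanked it at chr8:70417041-70417280 (1.40 and 1.66) and chr8:70418981-70419240 (1.24 and 1.77). The next 4 by mean value were at Creb1 and Crebbp. Creb1 had 2.17 ± 0.255 (SD, n = 2) at chr1:64446141-64446360, 1.64 ± 0.289 at chr1:64509761-64509960 and 1.57 ± 0.966 at chr1:64448181-64448400, all upstream of the gene. Crebbp had 1.62 ± 0.261 at chr16:4273981-4274260, also upstream. Full CREs were found in 0 of the 28 distal regions, against 0.557% of 46328 distal shared regions, and AP-1 motifs in 7, which is 25% against 18.0%.

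**Figure D4:**
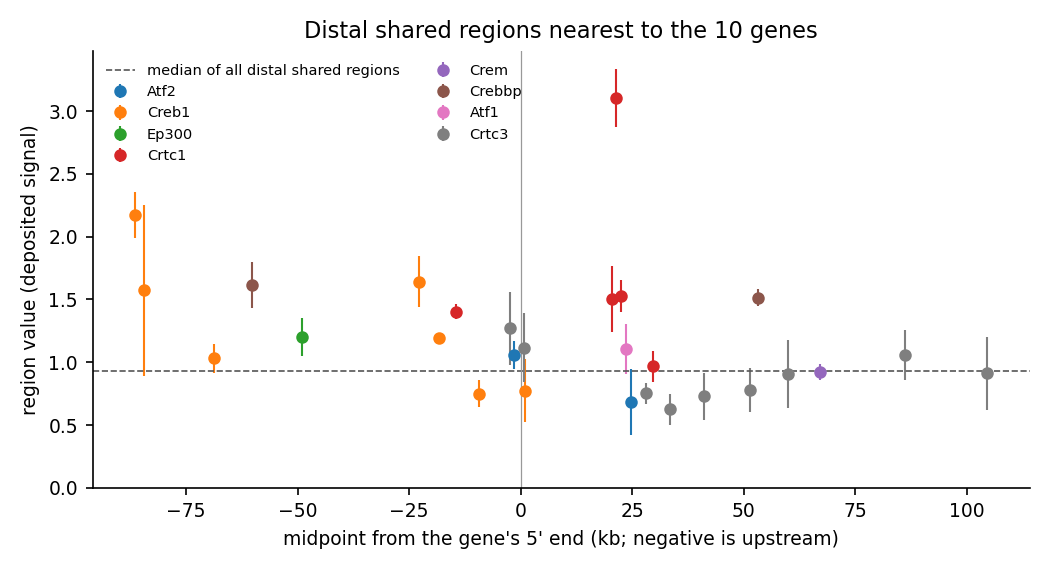
Distal shared regions of the 10 genes by distance of the midpoint from the 5′ end of the gene (horizontal axis, kb, negative upstream) and deposited signal (vertical axis, from 0). Points are means and bars run from the lower to the higher replicate. The dashed line is the median of all distal shared regions, 0.930, and the Crtc1 intron region at 3.10 lies above all others.

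Crebbp and Ep300 encode CBP and p300, the acetyltransferases that phosphorylated CREB recruits. The Crebbp promoter had 1.93 in replicate 1 (95% Poisson interval 1.74 to 2.13) and 3.71 in replicate 2 (3.36 to 4.08), a mean of 2.82 ± 1.26 (SD, n = 2). The Ep300 promoter had 2.87 (2.64 to 3.11) and 5.08 (4.67 to 5.52), a mean of 3.98 ± 1.57 (SD, n = 2). These differences of 1.92-fold and 1.77-fold, with that of Atf1, were the widest of the 10 genes by ratio. After removal of the median shift they stood at -0.45 and -0.33, inside the central 95% of all genes, as did all 10. Farthest from that shift were then Crem (0.59), Crtc3 (0.50) and Crtc2 (0.50), whose raw values were close between replicates. Both genes had further open start-site groups close to the first, at 584 bp in Crebbp (0.606 and 1.10) and 869 bp in Ep300 (1.41 and 1.90). Crebbp had another at 117871 bp (0.567 and 0.580). Other genes also start within 500 bp of the Ep300 regions, 1110025M09Rik at the first and Gm23880 at the second. Over the 10 genes 15 of 46 start-site groups were open in both replicates, which is 32.6% against 29.1% of all groups. Among them 5 of 36 downstream groups were open, which is 13.9% against 12.4% of all downstream groups, while 10 of 10 of the 5′-most groups were, against 52.5%.

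The upstream promoter sequences of both genes are printed to show what their footprints cover. In Crebbp (GRCm38.p6, chr16:4214021-4214260, minus strand) 2 CRE cores stood at positions -91 and -74, and the second lay partly inside a footprint of each replicate, with its first 4 bases in capitals. In Ep300 (chr15:81585101-81585320, plus strand) the single CRE core at -221 was inside a footprint of replicate 1 alone, while 2 of 3 GC boxes lay inside footprints of both.
Crebbp promoter: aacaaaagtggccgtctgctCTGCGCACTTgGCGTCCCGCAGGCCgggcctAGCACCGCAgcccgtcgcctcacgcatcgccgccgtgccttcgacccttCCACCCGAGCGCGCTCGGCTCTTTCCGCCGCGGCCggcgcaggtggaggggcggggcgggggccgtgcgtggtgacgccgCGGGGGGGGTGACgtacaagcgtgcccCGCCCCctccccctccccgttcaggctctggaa
Ep300 promoter: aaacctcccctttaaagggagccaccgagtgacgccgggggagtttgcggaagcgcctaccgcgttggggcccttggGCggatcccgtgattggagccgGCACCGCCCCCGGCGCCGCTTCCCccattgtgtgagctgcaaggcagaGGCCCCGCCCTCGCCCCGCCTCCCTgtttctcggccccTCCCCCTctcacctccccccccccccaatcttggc

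Footprint counts at the 10 genes were near the background. A footprint in both replicates was present in 15 of 18 promoter regions, against 87.9% of all shared promoter regions, and in 26 of 28 distal regions, against 89.4%. Besides the CRE and its core, AP-1 and the GC box, 6 motifs were searched on both strands. They were the ATF4 and C/EBP composite (TGATGCAA), ETS (CCGGAAG), NRF1 core (GCGCATGC), CCAAT box (CCAAT), E-box (CACGTG) and MEF2 core (TATTTATA). GC boxes stood in 12 of the 18 promoter regions, against 60.3% of all. They lay inside footprints of both replicates in 4 regions, against 22.7%.

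The genes around these factors were taken from lists that need not hold whole families. Of these genes 49 of 56 had a promoter peak in each replicate, against 57.9% of protein-coding genes. Other CREB and ATF factors had one in 10 of 13, with the highest means at Crebl2 (6.93 ± 3.26, SD, n = 2) and Atf7 (5.01 ± 1.65), and none in either replicate at Creb3l3 and Creb3l4. Protein kinase A subunits had one in 6 of 6, led by Prkaca (6.77 ± 0.202) and Prkar1b (4.21 ± 0.438), a catalytic and a regulatory subunit. Adenylyl cyclases, which make cyclic AMP, had one in 7 of 8, led by Adcy9 (3.09 ± 0.424) and Adcy5 (2.48 ± 1.58). Their median was 1.34, the lowest of the lists beside 1.35 for other CREB kinases. Those kinases had one in 6 of 6, led by Rps6ka5 (6.78 ± 0.149) and Rps6ka2 (4.02 ± 0.0228). The SIK kinases that hold CRTC proteins in the cytoplasm and the calcineurin subunits that release them had one in 6 of 6, led by Ppp3ca (6.60 ± 1.52) and Sik1 (5.55 ± 2.36). Known CREB target genes had one in 15 of 18, led by the clock genes Per1 (8.26 ± 1.64) and Per2 (6.76 ± 2.18), with no peak in either replicate at Sst, which encodes somatostatin.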

How the data were processed

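DNase-seq was deposited for 2 libraries of 1 group, with mm10 coordinates per the labels. Each library has 2 peak lists, a footprint list and a list of intervals. For the deposited peak signal, the normalization, aligner and caller were not given in the sources used here. Intervals were deposited by the authors with a false discovery rate (q-value, up to 0.05) and the footprints with 0.01 in all rows, a threshold whose kind is not stated. These files were used as deposited. The shorter peak list of each library was the main one. The rule names the members and uses no measured value, but members and gene lists were chosen with earlier results of these data known.

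Start sites came from GENCODE M21. A promoter was 500 bp on either side of a start site, and its value that of the strongest overlapping peak (overlap of at least 1 bp). Peaks of both libraries were merged, and a region holding a peak of each was called shared. A motif or footprint counted as inside only when wholly inside. Inferred reads gave exact 95% Poisson intervals. Named were all 10 members, the 5 distal regions with the highest mean, and per related list the 2 highest and up to 2 with no peak. Alternatives were the longer list, the stronger 50% of peaks, windows of 100 and 2000 bp, a reach of 50 kb, coding transcripts alone, midpoint overlap, any-overlap footprints, motif variants and each replicate left out. No test was run, since there is 1 group. Functions were tested on simulated data. Python 3.11.15, numpy 2.4.6 and scipy 1.17.1 were used.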

Additional observations from a re-analysis of the deposited data

How the results depend on the processing

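The 10 promoter values were equal under the 2 alternatives tried for them, the longer peak list and the same region in both replicates. These could hardly differ, since a value is that of the strongest peak. For all 10 genes the strongest peaks of the 2 replicates already overlapped. A promoter peak in both replicates was kept by 9 to 10 genes over 7 alternatives. Crtc3 lost it with the stronger 50% of peaks, where 51.7% of all genes had one, and Atf2 with windows of 100 bp, where 53.6% had one. The share of all genes was 62.4% with the longer list and 61.7% with windows of 2000 bp. With the stronger 50% of peaks there were 16 distal regions in place of 28, 26 regions with a footprint in both replicates in place of 41, and 1 promoter region with a CRE in place of 2. That list holds fewer peaks by construction. Counting any distal shared region within 100 kb, also those nearer to other genes, gave 63. Counting CRE cores (TGACG) in place of full CREs gave 9 regions. Leaving out each replicate gave 10 genes and 51 related genes. The share of all protein-coding genes was then 60.3% without replicate 1 and 59.4% without replicate 2. The other counts were 15 to 16 open start-site groups, 32 to 37 distal regions, 47 to 48 regions with footprints and 2 regions with a CRE. A replicate left out is a requirement dropped, so such counts could only stay or rise.

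No paired analysis was possible because there is 1 group. With 2 replicates an SD is imprecise. The read depth is inferred from the steps of the values. The median peak was 200 bp wide in each library, so nearby start sites can share 1 peak. Assignment of a distal region to the nearest gene is by distance alone. The reference sequence is that of 1 parental strain, and alleles of CAST/EiJ were not analysed here.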

Other observations

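The internal Crem gene body held 1 distal region beside its promoters, in an intron (chr18:3270561-3270860) with 0.860 in replicate 1 and 0.990 in replicate 2. It had an AP-1 motif wholly inside a footprint of each replicate. Such a match was found in 2 of the 28 distal regions, here and at Atf1, and in 0.389% of all distal shared regions. AP-1 was 1 of 10 motifs searched, and the count rests on 2 regions. These are 300 and 414 bp wide, against a median of 220 bp for all distal shared regions, and a wider region has more room for a match.

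The composite motif of ATF4 and C/EBP occurred once, in a weak region upstream of Creb1 (chr1:64523239-64523376; 0.646 and 0.856), outside all footprints, and in 0.840% of distal shared regions. The MEF2 core occurred once, in an intron region of Crtc3 (chr7:80647556-80647880; 0.537 and 0.918), also outside all footprints, and in 1.73% of distal shared regions. Crtc1 had 16 distal regions within 100 kb irrespective of the nearest gene, Crtc3 15, and Creb1 and Atf4 8 each.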
